A study of Mus musculus with 4 samples.

Results

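A set of 10 S100 genes was followed in cultured mouse epidermal keratinocytes: S100a1, S100a3, S100a4, S100a6, S100a7a, S100a8, S100a9, S100a10, S100a11 and S100a14. They were chosen by gene name among the probes of the array, where S100a7a stands under its older name S100a15 and was recognised by its accession. Each of the 10 genes had 1 probe, so they take 10 of the 41174 gene probes, and a gene's value rests on that probe alone. The cells carried K5-Cre, a recombinase driven by the keratin 5 promoter of basal keratinocytes, and 1 loxP-flanked allele of Casp8, the gene of caspase-8. Beside the flanked allele stood a null allele in Casp-8F/–K5-Cre mice (here F/-) and a wild-type allele in Casp-8F/+K5-Cre mice (F/+), so the controls also had the Cre and could lose 1 allele. Keratinocytes of 2 mice per genotype, with an age entry of P3 in the labels, were grown in serum-free medium with bovine pituitary extract and epidermal growth factor. RNA was taken at passage 1 (early) and passage 3 (late), which gave 8 RNAs on 4 two-colour arrays, with F/- in Cy3 and F/+ in Cy5 on every array. The labels pair 1 mouse of each genotype as pair 1 and the others as pair 2, and the same mice were sampled at both passages. For the F/+ RNA of the late arrays the source name says first passage, while title, description and passage entry give 3, and these were followed.

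S100 proteins are small calcium-binding proteins with EF-hand motifs that mostly act as dimers, inside cells on annexins, the cytoskeleton and proteases, and, when released, on surface receptors. S100a8 and S100a9 form calprotectin, a zinc- and manganese-binding alarmin that is abundant in neutrophils and induced in stressed or inflamed epidermis, and S100a7a belongs to the psoriasin group of epidermal antimicrobial and chemotactic proteins. Most genes of the family lie together in a cluster beside the genes of the cornified envelope, the protein shell of the outermost epidermal cells.

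All 10 genes lie on mouse chromosome 3, in the order S100a1, S100a14, S100a3, S100a4, S100a6, S100a7a, S100a8, S100a9, S100a11 and S100a10 in the RefSeq annotation of GRCm38.p6. All 10 probes were well above background in both channels on the 4 arrays, and none was saturated. Of all probes, 35574 passed the filter on dim signal. The Casp8 probe had log2 ratios of F/- over F/+ of 0.42 (early) and 0.47 (late) in pair 1 and of 0.18 (early) and -0.20 (late) in pair 2. Where this probe lies relative to the flanked part is not stated, so it does not check the genotype labels. Genotype went with dye on every array, so a dye effect on a probe and an effect of genotype cannot be told apart in these ratios, whereas both passages of a genotype carried the same dye. The 4 arrays lay on 1 slide and were scanned together. In bulk RNA, fewer cells of a type and less RNA per cell cannot be told apart.

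Over both passages, S100a7a was higher in F/- cells, and S100a10, S100a11 and S100a3 were lower. The other 6 genes were not called. Each ratio is the log2 of F/- over F/+ after loess normalization, given as mean ± SD over the 4 arrays, with the adjusted p of limma's moderated test over all probes, called under 0.05. S100 genes called numbered 4 of 10, against 8.84% of all probes, with 1 higher (all probes 5.85%) and 3 lower (all probes 2.99%). The arrays of a pair share their mice, so the 4 arrays are 2 pairs. With the arrays of a pair averaged first, 0 of 10 S100 genes and 0% of all probes were called, with limma adjusted p-values of 0.0509 for S100a7a, S100a10 and S100a11 and 0.0704 for S100a3. The median of the 10 mean ratios was -0.23, against -0.011 over all probes. S100a7a was positive on all 4 arrays, as were 19% of all probes. S100a3, S100a6, S100a10, S100a11 and S100a14 were negative on all 4, as were 19.9% of all probes. All of these but S100a3 are among the 231 brightest probes, of which between 66.8% and 82.3% were negative on each array.

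**Figure D1:**
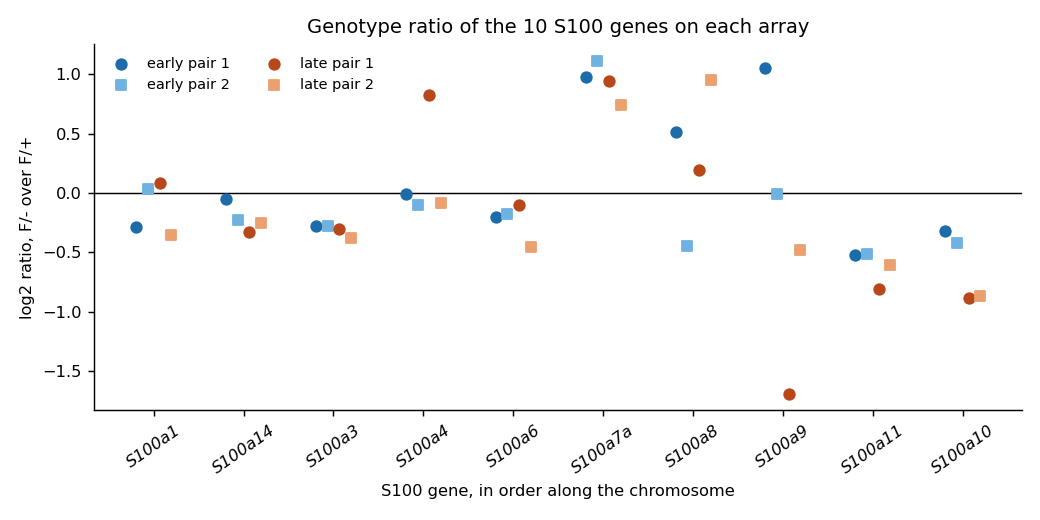
Log2 ratio of F/- over F/+ (vertical axis) for the 10 S100 genes in chromosomal order, with 1 point per array (circles pair 1, squares pair 2, blue early, orange late). The 4 points of S100a7a lie between 0.74 and 1.11, those of S100a10 and S100a11 all lie below 0, and those of S100a9 run from -1.69 to 1.06.

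S100a7a, a psoriasin-type alarmin of the epidermis, had log2 ratios of 0.97 (pair 1) and 1.11 (pair 2) early and of 0.94 and 0.74 late, the order of pairs kept below. In F/- cells its log2 channel level was 9.75 and 9.05 early and 8.59 and 9.09 late, and in F/+ cells it was 8.78 and 7.93 early and 7.65 and 8.34 late. Every F/- value lay above the F/+ value of its array, although the ranges of the genotypes overlapped across pairs and passages. The mean ratio was 0.94 ± 0.15 (n = 4 arrays of 2 pairs, SE 0.064, 95% interval 0.78 to 1.11), a 1.92-fold higher signal in F/-, with a limma adjusted p of 0.0257. At passage 1 alone the ratio was 1.04 ± 0.098 (n = 2, limma adjusted p = 0.0704) and at passage 3 alone 0.84 ± 0.14 (n = 2, limma adjusted p = 0.0790). The first of these adjusted p-values was the smallest in that comparison, where no probe was called, but other probes had the same value. The direction held without each array, with means from 0.89 to 0.99. Each of these fits leaves 1 array at a passage, so only the sizes are given.

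The 250 bases before the start of S100a7a (RefSeq, GRCm38.p6, chr3:90654052-90654301, plus strand) are printed because this gene was the one alarmin called between the genotypes. The capitals mark a match to the STAT motif TTCNNNGAA, 169 to 161 bases before the start. A match to it on either strand stood in 7.02% of 32851 promoter windows of this length. It describes the letters and is not a measured site.

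S100a7a: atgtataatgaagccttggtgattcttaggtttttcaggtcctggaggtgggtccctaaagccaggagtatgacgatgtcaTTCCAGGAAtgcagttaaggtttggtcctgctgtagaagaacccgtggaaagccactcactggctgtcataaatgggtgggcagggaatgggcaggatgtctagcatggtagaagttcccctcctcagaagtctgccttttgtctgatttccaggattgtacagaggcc

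By their 4 ratios, the genes closest to S100a7a among 29636 named probes were Eif4b, a translation initiation factor, at a Euclidean distance of 0.126, Gnb2, a G protein subunit, at 0.176, and Icam1, an adhesion molecule for leukocytes, at 0.196. With 4 ratios this likeness rests on little more than a similar size on every array.

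S100a8 and S100a9, the calprotectin subunits, were not called between the genotypes, and the arrays disagreed in direction for both. For S100a8 the log2 ratios were 0.51 and -0.44 early and 0.19 and 0.95 late, a mean of 0.30 ± 0.59 (n = 4, limma adjusted p = 0.390). For S100a9 they were 1.06 and -0.0080 early and -1.69 and -0.48 late, a mean of -0.28 ± 1.14 (n = 4, limma adjusted p = 0.539). The 4 ratios of S100a9 had the widest spread of the 10 genes.

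Within a passage both ratios differed the same way between the pairs, lower in pair 2 than in pair 1 early and higher late, while the gap between the genes changed with passage. On the early arrays the S100a8 ratio lay below that of S100a9 by 0.54 in pair 1 and 0.44 in pair 2 on the log2 scale, and on the late arrays it lay above it by 1.88 and 1.43. At passage 3 the mean ratio was 0.57 ± 0.54 for S100a8 and -1.09 ± 0.86 for S100a9 (n = 2 each, limma adjusted p = 0.361 and 0.213), whereas at passage 1 it was 0.034 ± 0.68 for S100a8 and 0.52 ± 0.75 for S100a9. The change of the ratio from passage 1 to passage 3 was -1.61 for S100a9 (SE 0.53, 95% interval -2.99 to -0.23, limma adjusted p = 0.840) and 0.54 for S100a8 (SE 0.41, limma adjusted p = 0.923). The sign of the S100a8 early mean also turned under median centring, to -0.17, and with the scanner software's ratio, to -0.015.

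In F/+ cells the S100a8 level kept within a narrow range, at 11.71 and 11.73 early and 11.95 and 11.82 late. In F/- cells it ranged more widely, at 12.22 and 11.29 early and 12.14 and 12.77 late. The S100a9 level in F/- cells was 14.71 and 14.02 early and 11.49 and 12.06 late, and in F/+ cells it was 13.65 and 14.03 early and 13.18 and 12.54 late. So S100a9 read lower at passage 3 than at passage 1 in both pairs and both genotypes. Its passages did not overlap, which also held for 56.7% of all probes in F/- and 52.2% in F/+.

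**Figure D2:**
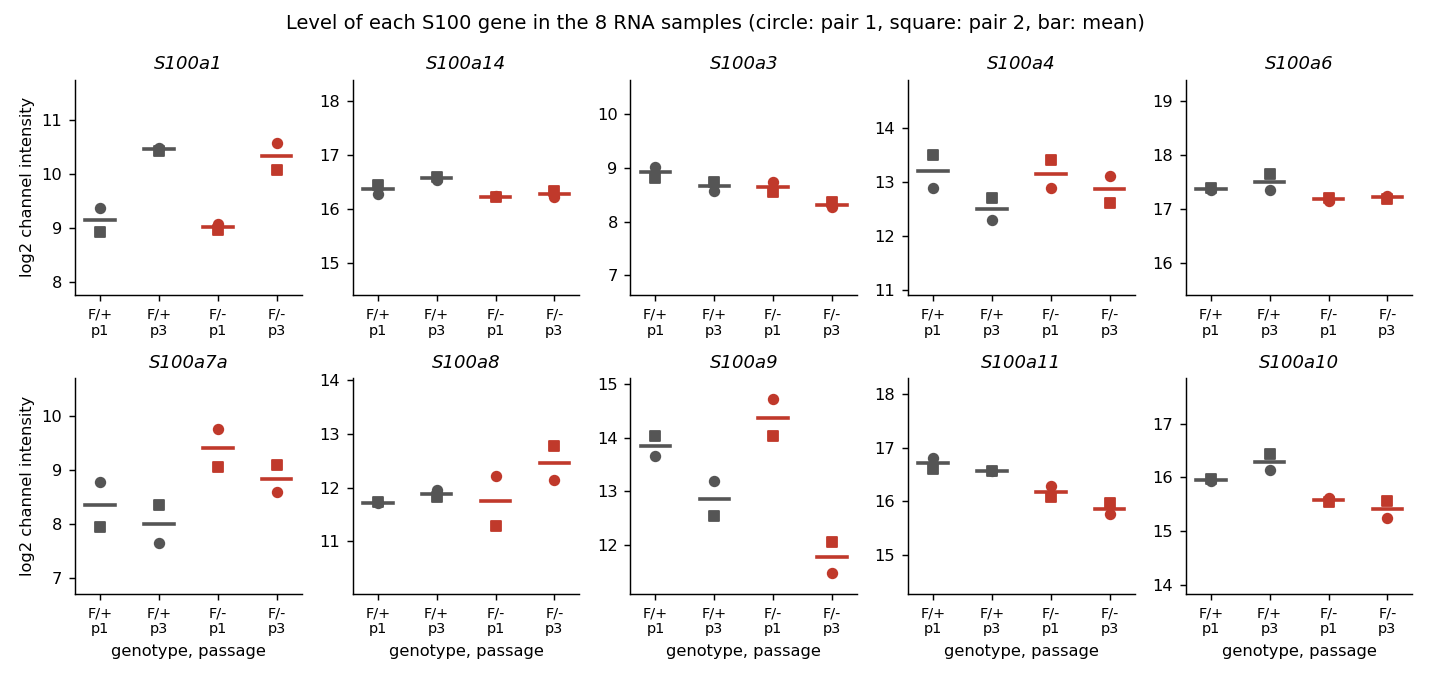
Log2 channel intensity (vertical axis, each panel with its own range) of each S100 gene in F/+ and F/- cells at passage 1 (p1) and passage 3 (p3), with circles for pair 1, squares for pair 2 and bars for the mean of 2. S100a1 is higher at passage 3 in both genotypes, S100a9 is lower, and S100a6 and S100a14 stay near 17 and 16.

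Neutrophils and macrophages also make calprotectin, so their markers are given beside it. In this and every other list the brightest kept probe stands for a gene, and counts and medians refer to it. Of 12 listed neutrophil genes 11 were on the array and 9 passed the filter. Elane and Csf3r did not pass. The median ratio of the 9 was -0.13, 1 of them was called (Mmp8, a neutrophil collagenase, at 1.80 ± 0.89, limma adjusted p = 0.0461), and their summed log2 level lay between 10.17 and 11.02 in the 8 RNAs. All 13 macrophage genes were measured, 3 were called higher in F/- and none lower, and their median ratio was 0.83. For Csf1r, not called at 0.57, other probes read 0.41 (called, limma adjusted p = 0.0472) and -0.034, and for Aif1 the brightest probe read -0.056 and another 0.18. By array the macrophage median was 0.94 and 0.18 early and 1.22 and 0.75 late. Their summed log2 level in F/- was 15.55 and 15.00 early and 14.005 and 13.39 late, and in F/+ it was 14.76 and 14.93 early and 12.15 and 12.08 late. The macrophage sum was thus lower at passage 3 in every pair and genotype, as S100a9 was. Between the genotypes the late arrays differed in sign, with macrophage medians of 1.22 and 0.75 and S100a9 ratios of -1.69 and -0.48. The part of the macrophage transcripts in the S100a8, S100a9 and S100a7a values was not tested.

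The 250 bases before S100a8 (chr3:90668821-90669070, plus strand) and before S100a9 (chr3:90695722-90695971, minus strand, written 5′ to 3′ along the gene) are set side by side because the gap between the ratios of the subunit genes changed sign between passages. Capitals mark TATAAA, 30 to 25 bases before the S100a8 start, and in S100a9 a match to the C/EBP motif TTGCNNAA, 236 to 229 bases before the start. Of all windows 12.4% held TATAAA and 9.56% held the C/EBP motif on either strand. Neither window held the match of the other, which says only that these letters are not in it.

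S100a8: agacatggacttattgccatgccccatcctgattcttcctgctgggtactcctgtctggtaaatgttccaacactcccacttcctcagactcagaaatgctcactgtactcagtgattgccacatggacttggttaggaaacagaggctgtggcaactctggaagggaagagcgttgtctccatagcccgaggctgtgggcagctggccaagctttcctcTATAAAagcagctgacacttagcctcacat

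S100a9: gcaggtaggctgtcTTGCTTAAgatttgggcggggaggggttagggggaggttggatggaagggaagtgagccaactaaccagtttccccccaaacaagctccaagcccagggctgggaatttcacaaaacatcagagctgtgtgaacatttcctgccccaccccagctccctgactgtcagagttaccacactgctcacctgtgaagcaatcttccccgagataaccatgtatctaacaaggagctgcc

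Genes with ratios closest to those of S100a8 were Plau, the urokinase plasminogen activator (distance 0.152), Sh3bp2, an adaptor protein (0.310), and Ppp1r37 (0.400). For S100a9 they were 9530080O11Rik (0.382), Slc4a7, a bicarbonate transporter (0.594), and H1f5, a linker histone (0.679).

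S100a10 and S100a11 were lower in F/- cells on every array. S100a10 binds annexin A2 in a complex that brings proteins to the plasma membrane, and it is an S100 protein that has lost calcium binding. S100a11 binds annexin A1, takes part in membrane repair and is cross-linked into the cornified envelope. For S100a10 the log2 ratios were -0.32 and -0.42 early and -0.89 and -0.87 late. Its level was 15.61 and 15.54 early and 15.24 and 15.57 late in F/-, and 15.93 and 15.96 early and 16.13 and 16.44 late in F/+. The genotypes did not overlap, but how many of all probes share this was not counted, here or for the genes below. The mean ratio was -0.63 ± 0.30 (n = 4 arrays of 2 pairs, SE 0.054, 95% interval -0.77 to -0.49), 1.54-fold lower in F/-, with a limma adjusted p of 0.0257.

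For S100a11 the log2 ratios were -0.52 and -0.52 early and -0.81 and -0.60 late. Its level was 16.29 and 16.08 early and 15.76 and 15.96 late in F/-, and 16.81 and 16.60 early and 16.57 and 16.57 late in F/+, again without overlap of the genotypes. The mean ratio was -0.61 ± 0.14 (n = 4 arrays of 2 pairs, SE 0.061, 95% interval -0.77 to -0.46), 1.53-fold lower in F/-, with a limma adjusted p of 0.0257. With the scanner software's ratio S100a11 read -0.41 and was not called (limma adjusted p = 0.0727), and S100a10 read -0.50 (limma adjusted p = 0.0488). Without any 1 array the means ran from -0.65 to -0.60 for S100a10 and from -0.67 to -0.56 for S100a11.

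At single passages neither gene was called. At passage 1 S100a11 read -0.52 ± 0.0040 (n = 2, limma adjusted p = 0.0858) and S100a10 -0.37 ± 0.073 (n = 2, limma adjusted p = 0.105). At passage 3 S100a11 read -0.71 ± 0.15 and S100a10 -0.88 ± 0.012 (n = 2, limma adjusted p = 0.0790 for each). The ratio of S100a10 was further below 0 at passage 3 than at passage 1 in both pairs, a difference of -0.51 (SE 0.11, 95% interval -0.79 to -0.23) that was not called (limma adjusted p = 0.819). In all, 0 of 10 S100 genes and 0% of all probes were called at passage 1, at passage 3 or for the difference between them. At an unadjusted p under 0.05 the S100 genes numbered 4, 6 and 2, against 7333, 7109 and 2074 of all 35574 probes.

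The AP-1 motif is shown for S100a11 because it stood 2 times in its upstream window, at 136 to 130 and at 38 to 32 bases before the start (chr3:93520246-93520495, plus strand). The motif searched was TGANTCA on either strand, which 6.75% of all windows held at least 1 time, and the capitals mark both matches. RefSeq windows were matched for 8 of the 10 genes.

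S100a11: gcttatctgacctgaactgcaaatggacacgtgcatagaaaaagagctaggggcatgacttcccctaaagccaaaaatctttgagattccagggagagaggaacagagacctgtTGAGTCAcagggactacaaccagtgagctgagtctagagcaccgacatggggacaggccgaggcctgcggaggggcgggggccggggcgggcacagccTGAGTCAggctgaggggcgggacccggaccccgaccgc

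These genes, with S100a6 and S100a14, are among the brightest probes of the array, where the normalization decides most. The probe of S100a10 was the dimmest of the 4, and 231 probes (0.649% of those kept) were at least as bright. Before loess the median ratio was -1.49 over those 231 probes and -0.53 over all probes, and after it the bright probes still had a median of -0.31. By array this median was -0.24 and -0.27 early and -0.36 and -0.29 late, against all-probe medians between -0.012 and 0.0026. Of the 231 bright probes 50 read as low as S100a10 or lower, and 52 as low as S100a11 or lower. With each array centred on its median in place of loess, S100a10 read -1.25, S100a11 -1.30, S100a6 -1.03 and S100a14 -0.90, all 4 of them called. With that centring 11.2% of all probes were called, 917 higher and 3050 lower. The part of intensity in the ratios of these genes was not tested.

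**Figure D3:**
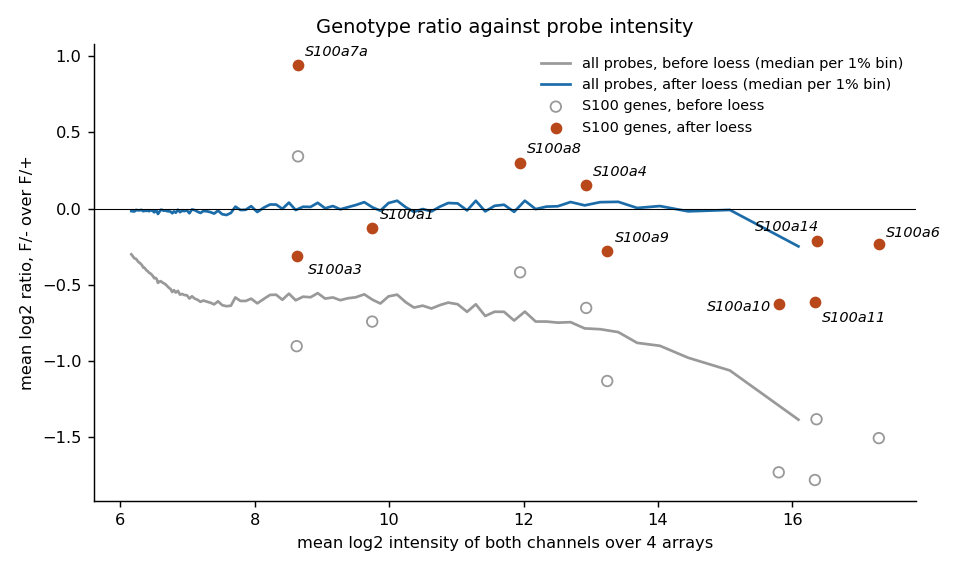
Mean log2 ratio of F/- over F/+ (vertical axis) against mean log2 intensity (horizontal axis), with lines for the median of all probes in bins of 1% before (grey) and after (blue) loess, and points for the S100 genes before (open) and after (filled). Loess lifts the bright genes from below -1 to between -0.63 and -0.22, while S100a7a, at middle intensity, lies at 0.94.

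S100a6 (calcyclin), one of the brightest probes of the array, had log2 ratios of -0.20 and -0.18 early and -0.098 and -0.46 late. Its mean of -0.23 ± 0.16 was not called (n = 4, limma adjusted p = 0.128), and 130 of the 231 bright probes read as low or lower. With the scanner software's ratio its mean turned to 0.046. S100a14, a relative that is abundant in squamous epithelium, had ratios of -0.049 and -0.23 early and -0.33 and -0.26 late, a mean of -0.22 ± 0.12 (n = 4, limma adjusted p = 0.0915). Levels of both varied little: S100a6 lay between 17.15 and 17.24 in F/- and between 17.34 and 17.65 in F/+, and S100a14 between 16.21 and 16.33 in F/- and between 16.28 and 16.59 in F/+.

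S100a3, a cysteine-rich member known from the hair cuticle, was lower in F/- by a small and even amount. Its log2 ratios were -0.28 and -0.28 early and -0.31 and -0.38 late. Its level was 8.73 and 8.54 early and 8.26 and 8.36 late in F/-, and 9.01 and 8.82 early and 8.57 and 8.74 late in F/+. Within each passage the genotypes did not overlap. The mean of -0.31 ± 0.049 (n = 4 arrays of 2 pairs, SE 0.052, 95% interval -0.45 to -0.17), 1.24-fold lower, had a limma adjusted p of 0.0389. This call rested on the details of the fit. With the pair as a block, which asks about the same value within pairs, limma's adjusted p was 0.0566. It was 0.0543 with a normexp offset of 0 and 0.0721 with the scanner software's ratio. Without any 1 array the mean ran from -0.33 to -0.29.

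S100a1, best known from heart and skeletal muscle, and S100a4, known from fibroblasts and migrating cells, were not called between the genotypes. For S100a1 the log2 ratios were -0.29 and 0.035 early and 0.085 and -0.35 late, a mean of -0.13 ± 0.22 (n = 4, limma adjusted p = 0.458). For S100a4 they were -0.012 and -0.10 early and 0.82 and -0.089 late, a mean of 0.15 ± 0.45 (n = 4, limma adjusted p = 0.568). Only the late array of pair 1 set S100a4 apart, where F/- read 13.12 and F/+ 12.30. Without it the mean was -0.073, and without the late array of pair 2 it was 0.38. Median centring turned it to -0.17. The 11 fibroblast markers, which did not include S100a4, had median ratios of 0.25 and 0.0052 early and 1.22 and 0.31 late. They stood highest on the late array of pair 1, but so did the macrophage markers, with a median of 1.22. The summed log2 level of the fibroblast markers in F/- was 11.78 and 11.78 early and 13.51 and 13.22 late. In F/+ it was 11.41 and 12.01 early and 12.22 and 12.79 late. This sum was thus higher late than early in both pairs and genotypes. From early to late S100a4 differed by -0.59 and -0.80 in F/+ and by 0.24 and -0.79 in F/-. All 11 fibroblast markers were measured and 1 (Postn) was called. Other probes read -0.049 and 0.54 for Col1a1, -0.14 for Col1a2 and -0.094 for Fbn1, against 1.06, 0.59 and 0.064 for the brightest. The part of the fibroblast and macrophage transcripts in the S100a4 value was not tested.

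**Figure D4:**
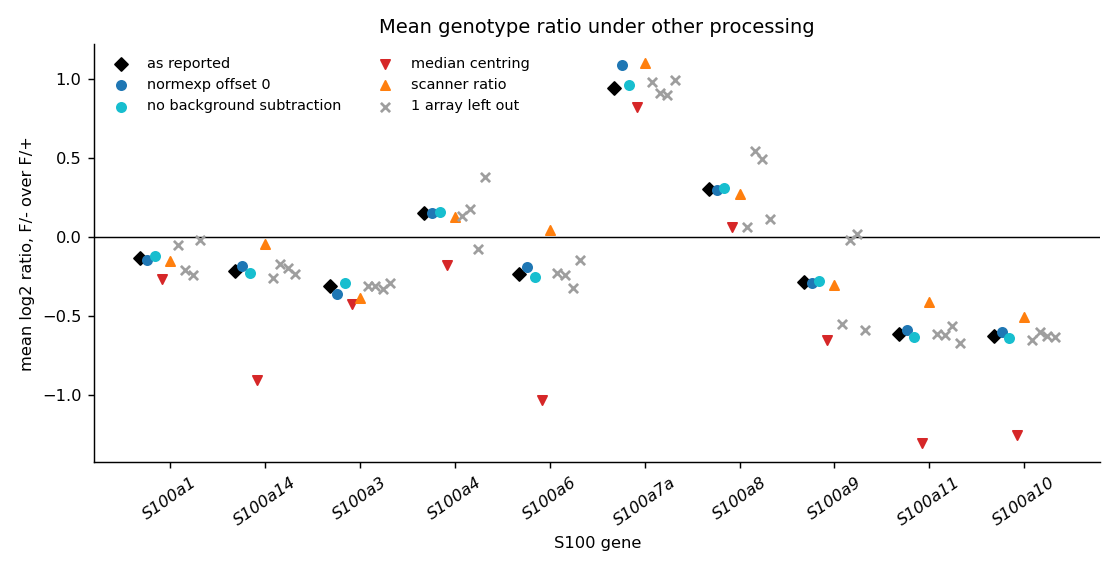
Mean log2 ratio of F/- over F/+ (vertical axis) of each S100 gene as reported (black diamonds), under other background corrections and normalizations (coloured), and with 1 array left out (grey crosses). S100a7a stays between 0.82 and 1.10 and S100a3, S100a10 and S100a11 stay below 0, while S100a4, S100a6 and S100a9 lie on both sides of 0.

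With passage, S100a1 rose in both genotypes and was the one S100 gene called. In F/+ cells its level was 9.37 and 8.93 at passage 1 and 10.50 and 10.44 at passage 3, and in F/- cells it was 9.08 and 8.97 at passage 1 and 10.58 and 10.09 at passage 3. Within a genotype no late value overlapped an early one, which also held for 56.7% of all probes in F/- and 52.2% in F/+. In limma's separate-channel fit the change was 1.32 in F/+ (SE 0.26, 95% interval 0.71 to 1.92, 2.49-fold, adjusted p = 0.0315) and 1.31 in F/- (SE 0.26, 95% interval 0.70 to 1.92, 2.47-fold, adjusted p = 0.0352). By pair it was 1.13 and 1.50 in F/+ and 1.50 and 1.12 in F/-. The call made 1 of 10 S100 genes in each genotype, against 5.66% of all probes in F/+ and 5.1% in F/-. With the pair as a block limma's adjusted p was 0.0510 in F/+ and 0.0567 in F/-. Without any 1 array the change ran from 1.06 to 1.55 in F/- and from 1.10 to 1.53 in F/+.

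The upstream window of S100a1 (chr3:90514331-90514580, minus strand) is printed because this gene alone was called with passage. It lies head to head with S100a13, and 204 bases of their 300-base RefSeq windows are shared. None of the 4 motifs searched (AP-1, C/EBP, STAT and TATAAA) matched in it. S100a13, across the shared start region, was not called with passage, at 0.60 in F/+ and 0.45 in F/- (SE 0.56 each, limma adjusted p = 0.566 and 0.678).

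S100a1: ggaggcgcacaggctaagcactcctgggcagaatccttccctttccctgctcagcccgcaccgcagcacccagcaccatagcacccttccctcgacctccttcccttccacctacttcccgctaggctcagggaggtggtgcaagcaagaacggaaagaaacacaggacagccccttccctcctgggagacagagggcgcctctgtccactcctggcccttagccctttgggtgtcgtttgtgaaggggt

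S100a9 had the largest passage difference of the 10 genes, at -2.59 in F/- (SE 0.60, 95% interval -3.9997 to -1.18, 6.02-fold lower at passage 3), which was not called (limma adjusted p = 0.0564). By pair the F/- difference was -3.22 and -1.96. In F/+ it was -0.98 (SE 0.60, limma adjusted p = 0.391), with -0.47 and -1.49 by pair. Whether the genotypes differed in this is the late minus early ratio given for S100a9 above, which was not called. In F/- S100a9 was called with a normexp offset of 0 (-2.61, limma adjusted p = 0.0158) and with quantile normalization (-2.65, 0.0443). It was also called with probes required to be well above background in both channels on all arrays (-2.59, 0.0443). Under the other alternatives that kept all arrays it was not called, with limma adjusted p-values up to 0.106 and differences up to -2.42. Without any 1 array the F/- difference ran from -2.93 to -2.25. S100a8 did not share this direction, with differences of 0.70 in F/- (SE 0.48, limma adjusted p = 0.456) and 0.16 in F/+ (SE 0.48).

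**Figure D5:**
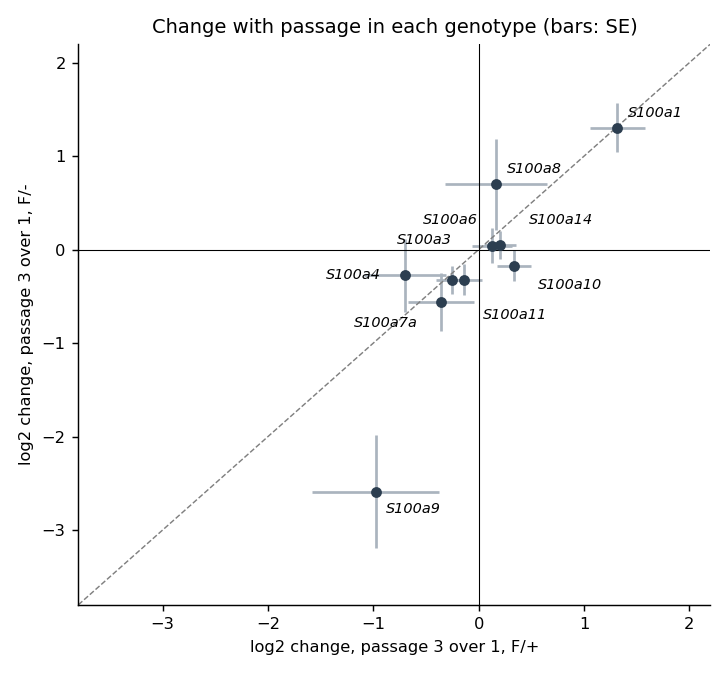
Log2 change from passage 1 to passage 3 in F/+ (horizontal axis) and F/- cells (vertical axis) for the 10 S100 genes, with SE bars and a dashed line of equal change. S100a1 lies on the line at 1.32 and 1.31, S100a9 lies lowest at -0.98 and -2.59, and the other 8 lie within 0.70 of 0 on both axes.

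The other 8 genes were not called with passage in either genotype. S100a7a differed by -0.36 in F/+ and -0.56 in F/-, but the pairs disagreed: the difference was -1.13 in F/+ and -1.16 in F/- in pair 1, and 0.41 and 0.039 in pair 2. S100a4 differed by -0.70 and -0.28 and S100a10 by 0.34 and -0.17 in F/+ and F/-. For S100a3, S100a6, S100a11 and S100a14 all values lay between -0.32 and 0.20. Early and late values did not overlap for 4 of 10 S100 genes in F/- (S100a1, S100a3, S100a9 and S100a11), against 56.7% of all probes, and for 8 of 10 in F/+ (all but S100a6 and S100a7a), against 52.2%.

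Among other genes of the S100 family and the fused-type proteins, which join S100 domains to long repeats in the cornified layer, 13 of 16 listed were measured (median genotype ratio -0.056). In the mean genotype ratio 1 rose (S100a16 at 0.36 ± 0.14, limma adjusted p = 0.0363) and 1 fell (Rptn, repetin, at -0.73 ± 0.65, limma adjusted p = 0.0336). With passage Rptn fell in both genotypes, at -2.52 in F/+ and -1.49 in F/- (limma adjusted p = 0.00348 and 0.0277). On the late arrays its F/- level, 6.30 and 6.32, was not well above background, which limits its late ratios and its F/- fall. Flg, profilaggrin, fell in F/+ at -3.75 (limma adjusted p = 0.0485). Hrnr, hornerin, was not called by its brightest probe (-0.17), while its other probe was lower in F/- (-0.41, limma adjusted p = 0.0282) and fell with passage in F/+ (-1.23, limma adjusted p = 0.0036). S100a8 and S100a9 bind Ager and Tlr4 on the cell surface, and these read -0.071 ± 0.20 and -0.12 ± 0.12 between genotypes. Of the 16 partners and receptors (median -0.041) 2 rose in F/- and none fell: Anxa6, an annexin, at 0.76 ± 0.29, and Bsg, a receptor of S100a9, at 0.49 ± 0.22 (limma adjusted p = 0.0348 and 0.0370). Anxa2, the partner of S100a10, was not called at -0.13 ± 0.26, and its other probe read 0.31. Other probes also differed in sign for Ahnak (0.077 and 0.021 against -0.45) and Sugt1 (0.31 against -0.32), none of them called. Anxa6 also rose with passage, by 2.16 in F/+ and 1.99 in F/-.

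Calmodulins and other EF-hand relatives of the S100 proteins went both ways. Of 13 measured (median 0.070), 2 rose in F/- (Ncs1 at 0.72 ± 0.069 and Calm3 at 0.58 ± 0.39, whose other probes read -0.22 and -0.070) and 3 fell. These were the epidermal calmodulin-like genes Calm4, at -1.11 ± 0.43, and Calml3, at -1.14 ± 0.64, and Calm2 at -0.43 ± 0.11. Calm4 had the largest passage change in the list, at -5.29 in F/+ and -5.78 in F/- (limma adjusted p = 0.000385 and 3e-04). Calml3 also fell in F/+, at -2.41, where the brightest Calm3 probe rose, at 1.58. Of 15 measured regulators of S100 genes (median -0.039) 4 rose in F/- and none fell, namely Tnf at 0.97 ± 0.44, Cebpa at 0.67 ± 0.23, Il1a at 0.50 ± 0.39 and Il17ra at 0.50 ± 0.19, the last a receptor for cytokines that induce epidermal S100 genes. The brightest Cebpb probe was not called at -0.16, while the other rose in F/- (0.55, limma adjusted p = 0.0270) and fell with passage in F/+ and F/- (-1.28 and -1.29, limma adjusted p = 0.0278 and 0.0299). With passage Klf4, a factor of barrier formation, fell at -2.07 in F/+ and -1.68 in F/-, and Fos, an AP-1 subunit, at -2.84 and -2.76.

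The marker lists of the keratinocytes themselves frame these values. All 13 keratinocyte markers were well above background on the 4 arrays. By their brightest probe 5 of them fell in F/- and none rose (median -0.079). Of their other probes, those called were a lower one of Itga6 (-0.50) and higher ones of Trp63 and Sfn (0.54 and 0.87). Of 11 suprabasal markers 6 fell in F/- and none rose by their brightest probe (median -0.79). The other probes of Sbsn and Dmkn, 2 of these 6, read 0.33 and 0.23 against -1.19 and -1.07, and that of Krt10 read 0.044 against -0.57. With passage the suprabasal median was -3.47 in F/+, where 7 fell, and -2.94 in F/-, where 6 fell. By the brightest probes, 10 of the 11 suprabasal transcripts had a mean ratio below 0, and the share of all probes below 0 was not counted. Of the 10 S100 genes 7 had a mean ratio below 0, while S100a7a, S100a8 and S100a4 lay above it. Among the suprabasal transcripts Ivl lay above 0, at 0.65 and 0.26 early and 0.071 and 0.43 late. The part of the suprabasal transcripts in the S100 values was not tested. With passage 9 of the 11 suprabasal transcripts read lower in each genotype, while Ivl read higher, by 0.85 in F/+ and 0.65 in F/-. Of the 10 S100 genes 5 read lower with passage in F/+ and 6 in F/-, and none was called lower in the fit reported. Of 8 melanocyte genes none was called between genotypes by its brightest probe, although the other Dct probe was (0.34, limma adjusted p = 0.0423), and of 7 Langerhans and T cell genes 1 was (Epcam, at 0.62).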

How the data were processed

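The submitters' processing notes name Agilent Feature Extraction 9.1.3.1 as the software that read the arrays. The deposited files hold, per the file headers, raw spot intensity and local background in both channels and the scanner software's log10 ratio. The authors' deposited value table holds that log10 ratio with its sign turned (Cy3 over Cy5, largest gap 4.96e-06). Its medians were -0.00223, 0, 0 and -0.000733, and 1896, 1130, 2350 and 1774 spots are empty for a reason that no source used here gives. Log2 ratios and channel levels were computed here from the deposited raw intensities with limma 3.58.1 (R 4.3.3), by normexp (offset 50), loess within arrays (control and outlier spots at weight 0) and averaging of a probe's spots. A probe was kept if 1 channel or both stood well above background on 2 or more arrays and no more than 1 array lacked it.

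Median raw signal was 101 to 139 in Cy3 and 166 to 253 in Cy5. The number of arrays limits the precision. Probes were named by accession (22951), symbol (6661) or older symbol (3097) through RefSeq (GRCm38.p6), and 8465 kept the file's name. Genotype ratios were fitted with lmFit and eBayes on all 4 arrays (residual degrees of freedom 2, prior 2.81). Passage was fitted on the 8 channels after Aquantile with lmscFit (intraspot correlation 0.742). P-values were two-sided and adjusted by the Benjamini-Hochberg method over all probes kept. The fit was tested on simulated data.

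The members and lists were chosen with earlier results of these data known. All 10 members were named, with genes of the listed partners and relatives that were called and at most 2 others at each end (the brightest kept probe stands for a gene), and the 3 nearest genes by Euclidean distance over the 4 ratios. The series' design text states that the same mice were sampled at both passages, so the numbers are pairs. The correlation of their deviations from the passage means was -0.000464. P-values treat the 4 arrays as separate samples. Alternatives were the offset, the background step, the normalization, the filter, the probe rule, the scanner ratio, leaving out each array, and the pair as a block or averaged first. Upstream sequences come from RefSeq.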

Additional observations from a re-analysis of the deposited data

How the results depend on the processing

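The 60 values of the 10 S100 genes (6 comparisons) gave 730 values under 15 alternatives. Of these 668 kept direction and side of the threshold, 28 lost the call, 9 gained it and 25 turned sign, none of them a called value. The count of S100 genes called in the mean genotype ratio was 4, with 8.84% of all probes called. It was 6 with median centring (S100a6 and S100a14 added), where 11.2% of all probes were called. It was 3 with a normexp offset of 0 (all probes 11.1%) or the replicate block (9.07%), and 2 with the scanner ratio (5.15%). With arrays of a pair averaged first, which leaves 1 degree of freedom, it was 0 (all probes 0%). There the limma adjusted p was 0.0509 for S100a7a, S100a10 and S100a11 and 0.0704 for S100a3. Early the count was 0 (all probes 0%), and 1 with a normexp offset of 0 (S100a7a, 1.17, limma adjusted p = 0.0499), where 0.194% of all probes were called. Passage counts of 1 (all probes 5.66% in F/+ and 5.1% in F/-) became 0 with the replicate block in both genotypes (4.02% and 3.35%). In F/- the count became 2 with a normexp offset of 0 (all probes 5.86%), quantile normalization (5.24%) or the filter on both channels (6.19%). The replicate block changed no S100 call other than those of S100a3 and S100a1. Fits of passage without 1 array or with the block took the intraspot correlation of all arrays, as it could not be estimated there. A lone array was assumed to vary like the others.

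Values that turned sign were none of them called. With the scanner ratio these were S100a1 late minus early (0.048), S100a14 early (0.050), S100a6 early (0.088), late (0.0045) and mean (0.046), and S100a8 early (-0.015). With median centring they were S100a4 mean (-0.17) and S100a8 early (-0.17). In F/+ passage S100a11 turned with median scaling of channels (0.027) and quantile normalization (0.055), and S100a6 with quantile normalization (-0.036). With 1 array left out, S100a1 ranged from -0.29 to 0.035 early, from -0.35 to 0.085 late and from -0.23 to 0.21 in late minus early. S100a4 ranged from -0.089 to 0.82 late, from -0.033 to 0.88 in late minus early and from -0.073 to 0.38 in the mean. S100a6 ranged from -0.27 to 0.093 in late minus early and from -0.026 to 0.28 with passage in F/+. S100a7a ranged from -0.78 to 0.062 with passage in F/+ and S100a14 from -0.013 to 0.11 in F/-. S100a8 ranged from -0.44 to 0.51 early. S100a9 ranged from -0.0080 to 1.06 early and from -0.58 to 0.022 in the mean. The causes were not tested. With 2 arrays per passage and the same dye for a genotype throughout, small differences could not be resolved and dye cannot be told apart from genotype.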
